A study of Nothobranchius furzeri with 39 samples.

Results

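The genes described here carry names of protein families that vertebrate livers release into the blood. Their mRNA was measured by RNA sequencing in livers and brains of Nothobranchius furzeri, the African turquoise killifish. They were chosen by gene name alone (apolipoproteins, serpins, fibrinogen chains, clotting and complement factors, and blood carriers), which gave 38 of the 25099 genes of the 2-month table and 30 of the 16383 genes of each 3-month table. By role there were 9 coagulation genes, 9 complement genes, 8 carriers or inhibitors, 8 serpins and 1 apolipoprotein. The other 3 matched by spelling (cfdp1, apobec2 and the thrombin receptor gene f2r) and do not code for plasma proteins. The serpins were counted by family, so they include genes such as serpini1 (neuroserpin) and serpinh1 (a collagen chaperone), whose known roles lie outside blood. A further 32 genes carry only a LOC identifier in the files while their RefSeq symbol meets the same name pattern. These LOC genes, 13 of them apolipoproteins, were kept apart from the 38 and are given with both names.

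At 2 months of age the fish were WT, ATM mutant or ATMcGAS double mutant. Each genotype gave brains of 2 males and 2 females, and livers of 2 males and 2 females except in the ATM mutant, where 1 male and 2 female livers were used. At 3 months there were male livers of 4 WT and 3 Blm1 mutant fish, and brains of 2 WT fish (1 of each sex) and 5 cGAS mutant fish (2 males and 3 females). The strain and the alleles are not stated in the labels. Sample numbers were read as fish. Beyond those numbers no label says how the samples were collected, so p-values measure the spread between these samples.

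As background, hepatocytes make most of the protein in vertebrate blood plasma. Fibrinogen chains form the clot, prothrombin (f2) and the vitamin K-dependent factors trigger it, and plasminogen (plg) dissolves it. C3 is the hub of the complement cascade, whose terminal components C5 to C9 form pores in target membranes. Haemopexin (hpx) binds free haem, the retinol carrier Rbp4 and transthyretin (ttr) carry vitamin A and thyroid hormone, and ceruloplasmin (cp) is a copper-bearing ferroxidase. In egg-laying vertebrates the female liver also makes vitellogenin, the egg yolk precursor, under oestrogen.

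Total counts per library were 18629542 to 39277517 in 2-month brains, 24998412 to 36815981 in 2-month livers, 19503167 to 24094789 in 3-month livers and 10997817 to 17278458 in 3-month brains. Levels below are in CPM, read counts relative to the total of their library, scaled by TMM (edgeR's correction for library composition) within each set of libraries, and no gene is ranked against another because gene lengths were not used. Several libraries stood apart from their groups. The library labelled double mutant 4 was separate in liver and in brain, and its counts of mb21d1, the cGAS gene, were 212 in liver and 131 in brain. The other double mutant and the ATM mutant livers held 0 to 3 and other 2-month brains 5 to 14, but WT liver 1 held 271, so this gene did not sort the libraries by label. Blm1 mutant liver L3 and cGAS mutant brain 3_f stood apart at 3 months. Calls of the members, and of the LOC genes named below, that rest on these libraries are given with and without them. The 8 hepatocyte marker genes were all higher in WT liver than in WT brain.

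Plasma protein genes separated liver from brain. Of the 37 members tested, 27 were higher in WT liver, 6 were higher in WT brain and 4 did not pass edgeR's quasi-likelihood test at a Benjamini-Hochberg adjusted p under 0.05. In the same comparison 72.7% of all tested genes were called, 29.5% higher and 43.1% lower in liver. The median log2 difference was 11.45 over the members and -0.42 over all tested genes. All 9 coagulation genes were higher in liver, as were 7 of 9 complement genes, 6 of 8 carriers or inhibitors and 3 of 7 serpins tested. At the depth of these libraries many of them were near the limit of detection in brain. The 4 WT livers together held 445081 counts of fgg, a fibrinogen chain, and the 4 WT brains held 4. For f7, clotting factor VII, the livers held 22394 counts and the brains 0, which makes the liver level at least 7410-fold higher with a floor of 3 counts over the brains. Antithrombin (serpinc1) had 118461 liver counts against 1 brain count, a ratio of 1.18e+05 with a 95% exact interval of 2.11e+04 to 4.64e+06 that covers counting error only. The ratios of f7 and serpinc1 are over total counts, without the TMM scaling that raises liver relative to brain.

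Some members were found in both tissues. Apof, an apolipoprotein, had 14396 counts over the WT livers and 3934 over the WT brains, with a log2 difference of 4.06 ± 0.26 (SE; adjusted p = 5.23e-11). The retinol carrier gene rbp4 had 194382 liver and 17932 brain counts, with a log2 difference of 5.27 ± 0.316. For cp the counts were 201215 and 4755, with a log2 difference of 6.72 ± 0.526. Brain levels of these genes were therefore measured well above zero, unlike those of fibrinogen.

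The 6 members higher in brain included serpins with known roles outside blood. Neuroserpin (serpini1), a protease inhibitor of neurons, had 5427 counts over the WT brains and 1 over the WT livers. The ratio over total counts was 5.47e+03, with a 95% exact interval of 981 to 2.16e+05. TMM scaling lowers this ratio, since it raises liver relative to brain. Protease nexin 1 (serpine2) had 6453 brain and 797 liver counts, and was lower in liver by a log2 difference of -1.10 ± 0.245 (adjusted p = 0.000549). The other four were c6, a terminal complement component (226 brain and 6 liver counts), itih6 (276 and 4), serpinf1 (128 and 3) and apobec2 (843 and 24). Serpinf1 and itih6 lost their calls when the fish was kept as a block (adjusted p = 0.0584 and 0.0805) and without WT liver 3 (adjusted p = 0.0862 and 0.187). The thrombin receptor gene f2r was called higher in liver on the TMM scale, with a log2 difference of 1.10, yet its pooled liver to brain ratio of counts was 0.709, so its direction depends on the scaling. Scaling by total counts moved the median of all genes by -2.03 on the log2 scale and gave 26 higher and 10 lower members.

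**Figure D1:**
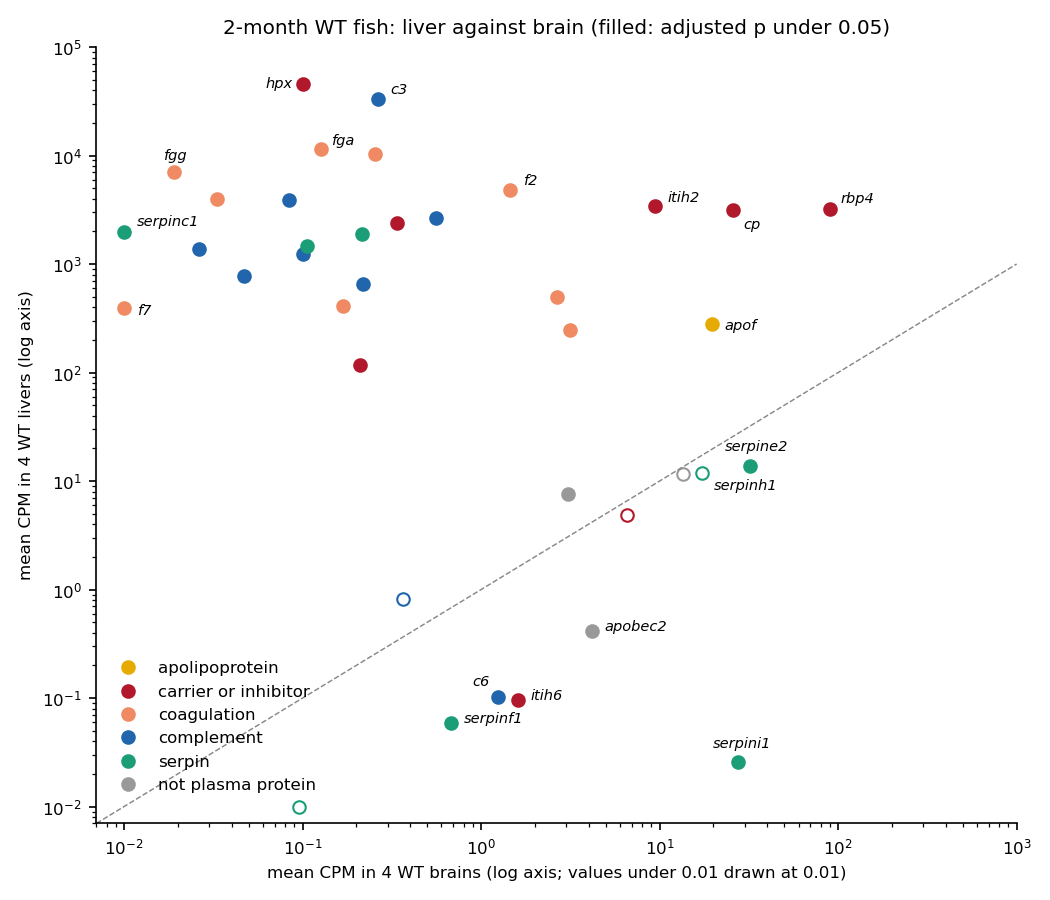
Mean CPM of each member in the 4 WT brains (horizontal) and the 4 WT livers (vertical) at 2 months, both on log axes on a scale shared by the tissues, with values under 0.01 drawn at 0.01. Filled points passed the test; the 27 genes higher in liver lie above the dashed line of equality, and serpini1 lies far below it.

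In the 2-month livers the share of all counts taken by the 38 members differed by sex and, among females, by genotype. It was 14.6% and 12.4% in WT males 1 and 2, 12.6% in ATM mutant male 4, 15.6% in double mutant male 1 and 12.2% in the library labelled double mutant 4. In females it was 2.38% and 2.31% in WT, 7.13% and 6.78% in ATM mutants, and 6.65% and 6.88% in double mutants. Every male library was above every female library, and every mutant female was above both WT females. Hpx alone took 4.63% to 7.16% in 4 males and 0.715% in the library labelled double mutant 4. Leaving the vitellogenin gene vtg3 out of the totals gave 2.48% and 2.41% in the WT females. Vtg3 was the only vitellogenin gene found by name. Of 14280 LOC names 5241 had a symbol, so whether other yolk genes remain in the totals is not known. Shares also depend on the other abundant genes, and the 20 most-counted genes took 54% and 59.8% of the counts in WT females against 30.4% to 37.4% in the other 2-month livers. Over the genes that all 3 tables hold, the members took 4.36% and 4.56% in WT females, 10.1% to 10.8% in mutant females and 16.1% to 23.3% in males. Brains held 0.0439% to 0.0776%. In bulk tissue, fewer cells of a type and less RNA per cell cannot be told apart.

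**Figure D2:**
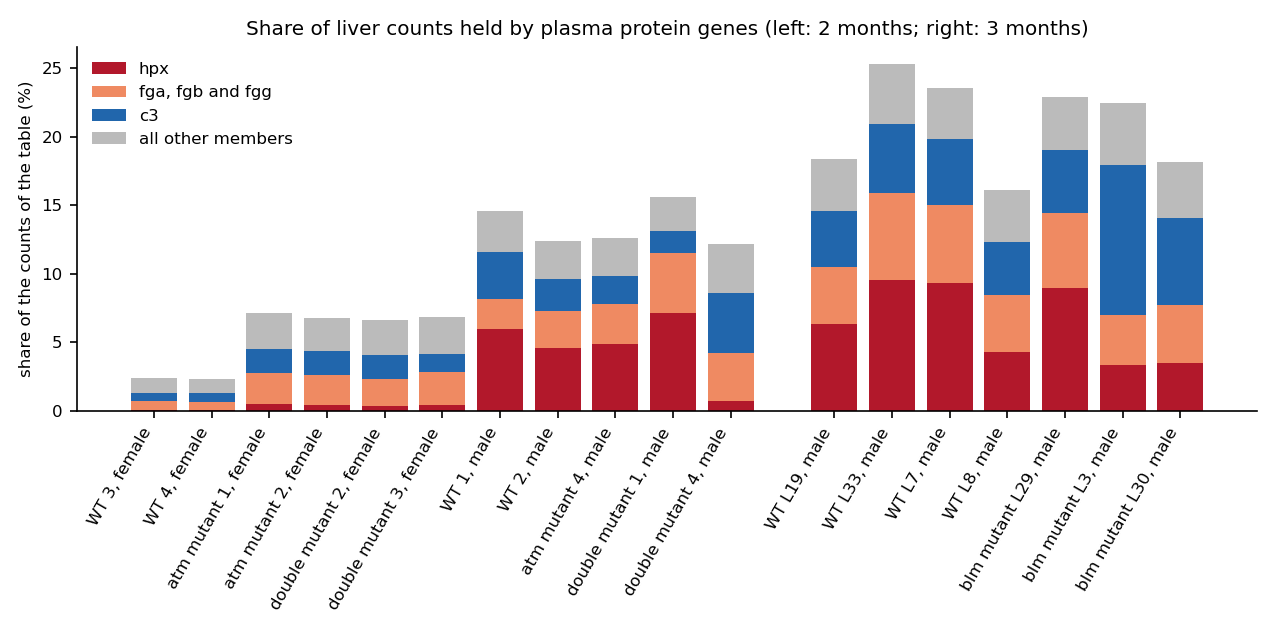
Share of all counts (percent, vertical) taken by hpx, the 3 fibrinogen chains, c3 and all other members in each liver library, with the 2-month livers on the left and the 3-month male livers, whose tables hold fewer genes, on the right. WT females have the shortest bars (2.31% and 2.38%). Hpx makes up a large part of the bar in every 2-month male except the library labelled double mutant 4. Its part varies among 3-month males, with 3.34% of 22.5% in L3, 3.5% of 18.2% in L30 and 9.57% of 25.3% in L33.

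Male livers had more hpx, fibrinogen gamma and complement C8 beta mRNA than female livers. These were the only 3 of 32 tested members to pass edgeR's test with genotype as a covariate, all higher in males, against 2.84% of all tested genes (1.28% higher). Hpx was 22.3-fold higher, fgg 2.02-fold and c8b 1.91-fold. A further haemopexin gene, the LOC gene hpxb (LOC107381034), was not called between the sexes. Over all genotypes its median was 9.43e+03 CPM in female and 9.83e+03 CPM in male 2-month livers, on a scale shared with brain. These medians pool the genotypes and do not show WT males and WT females separately. For hpxb all 4 mutant females were above both WT females, as were 22.1% of all genes with a mean of at least 1 CPM. In the WT livers of both sexes together hpxb ran from 3011 to 6360 CPM on the liver scale. The median log2 difference was 0.26 over the members, 24 of them positive and 8 negative, and 0.03 over all tested genes.

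Hpx stood at 53462 and 43883 CPM in WT males, 47469 in the ATM mutant male, 68664 in double mutant male 1 and 5035 in the library labelled double mutant 4. In females it was 709 and 547 CPM in WT, 4904 and 4369 in ATM mutants and 3311 and 3306 in double mutants. The sexes did not overlap, although the library labelled double mutant 4 lay just above the highest female. The log2 difference was 4.48 ± 0.774 (SE; edgeR adjusted p = 0.0201), and 4.98 ± 0.5 (adjusted p = 0.00174) without that library.

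Fgg was at 5234 and 6019 CPM in WT males, 6908 in the ATM mutant male, and 10339 and 7361 in double mutant males 1 and 4. WT females had 1990 and 2021 CPM, ATM mutant females 5376 and 5129, and double mutant females 4212 and 5062. The 4 mutant females lay between the WT females and most males, with 1 ATM mutant female above the lowest male, and the WT females were below every other liver. The log2 difference was 1.02 ± 0.197 (adjusted p = 0.0276). C8b, a subunit of the membrane pore, ran from 712 to 1162 CPM in males and from 345 to 595 CPM in females without overlap, with a log2 difference of 0.94 ± 0.213 (adjusted p = 0.0485).

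The other fibrinogen and complement genes did not pass. The fibrinogen alpha chain gene fga had a fold of 1.83 (adjusted p = 0.0738), the beta chain gene fgb 1.73 (0.0755), c9 1.79 (0.133), and c3 a log2 difference of 0.90 ± 0.267 (0.0981). Of 31 members with a mean of at least 1 CPM, 2 (c8b and hpx) had every male above every female, against 1.85% of all such genes, and 0 had every male below (1.96%). Apof had a log2 difference of -0.51 (adjusted p = 0.216).

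The calls between the sexes depended on single libraries. No member was called without double mutant female 2 or without WT female 3 or 4. Hpx alone was called without ATM mutant 1 or 2, double mutant 3, or WT 1 or 2. There were 4 calls without double mutant 1 (fgg, c3, c8b and hpx) or without the library labelled double mutant 4 (fgg, fga, fgb and hpx). Of the 6 macrophage and microglia markers found, csf1ra and marco were 36.4 and 38.3 CPM in the library labelled double mutant 4 and 15.9 and 13.1 CPM in WT male 1. The other markers and the other livers are not given here, so these values do not describe the cell type as a whole. The part of csf1ra and marco in the result was not tested. The yolk gene vtg3 was at most 0.96 CPM in males and from 3.78 to 65624 CPM in females.

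**Figure D3:**
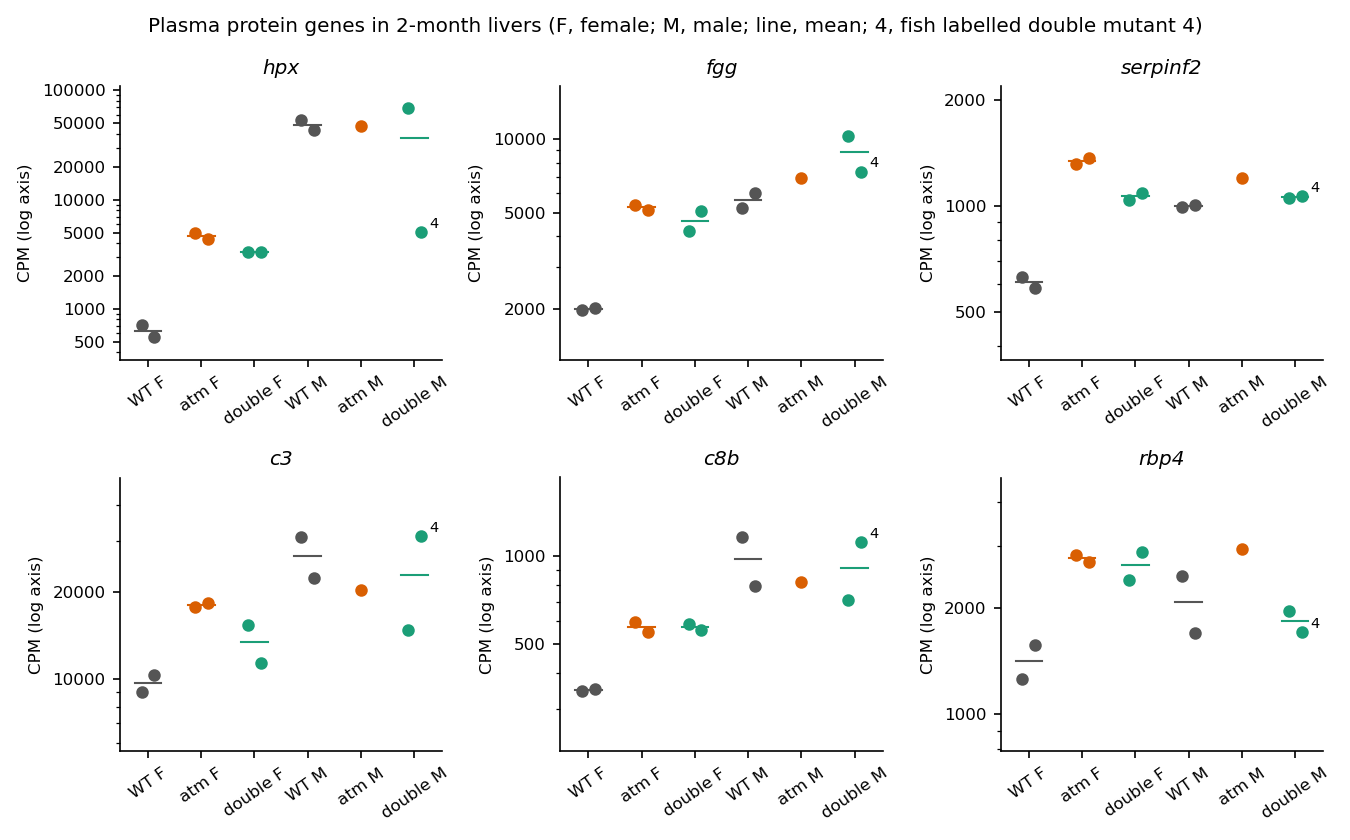
CPM (log axis) of hpx, fgg, serpinf2, c3, c8b and rbp4 in each 2-month liver by sex and genotype, with a line at each group mean and a 4 beside the library labelled double mutant 4. Both WT females lie below all other livers for each of these genes, and hpx of the library labelled 4 (5035 CPM) sits near the values of the mutant females.

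Among females, both mutants had more fibrinogen gamma mRNA than WT. Fgg was 2.64-fold higher in ATM mutant females (log2 1.40 ± 0.255; edgeR adjusted p = 0.0460) and 2.32-fold higher in double mutant females (1.22 ± 0.254; 0.0396). Alpha-2-antiplasmin (serpinf2), the inhibitor of plasmin, was 2.23-fold higher in ATM mutant females (1.16 ± 0.190; 0.0390). In the ATM mutant these were the 2 called of 33 tested members, against 1.71% of all genes (0.515% higher). In the double mutant fgg was the 1 call of 33, against 5.13% (2.10% higher). Both comparisons use the same WT females.

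The remaining groups of members were placed higher without passing the test. In ATM mutant females 29 of 33 log2 differences were positive, with a median of 0.64 (0.01 over all genes). In double mutant females 26 of 33 were positive, with a median of 0.48 (0.02 over all genes). At an unadjusted p under 0.05 there were 12 and 10 members, against 15.7% and 21.9% of all genes. Role by role, the median log2 difference in ATM mutant and double mutant females was 0.98 and 0.91 for carriers or inhibitors, 0.74 and 0.59 for complement, 0.75 and 0.73 for serpins, and 0.64 and 0.34 for coagulation genes.

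Serpinf2 was at 631 and 587 CPM in WT females, 1320 and 1374 in ATM mutant females, and 1046 and 1092 in double mutant females. Males ranged from 993 to 1204 CPM across genotypes. The WT females were thus the 2 lowest livers, and the mutant females lay within or above the male range. In double mutant females the log2 difference was 0.82 ± 0.189 (adjusted p = 0.0511).

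Fga was at 3719 and 3828 CPM in WT females, 9578 and 10102 in ATM mutant females, and 6263 and 7849 in double mutant females. Fgb followed at 3332 and 3421, 8312 and 8525, and 6533 and 7629 CPM. The mutant females lay above both WT females for the 2 chains. Their log2 differences in ATM mutant females were 1.40 ± 0.375 (adjusted p = 0.126) and 1.33 ± 0.303 (0.083).

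C9, a terminal complement component, was at 963 and 1019 CPM in WT females, 2840 and 2675 in ATM mutant females, and 2176 and 2016 in double mutant females. C3 was at 8963 and 10312, 17629 and 18303, and 15330 and 11362 CPM. Neither gene passed, with log2 differences of 1.49 ± 0.294 (adjusted p = 0.0561) and 0.91 ± 0.299 in ATM mutant females, but no mutant female fell within the WT pair. Cfi, which cleaves activated C3, ran from 776 to 903 CPM in mutant females against 483 and 474.

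Among carriers, rbp4 was at 1258 and 1576 CPM in WT females, 2837 and 2713 in ATM mutants, and 2409 and 2890 in double mutants. Cp was at 950 and 1093, 2435 and 1954, and 2211 and 2122 CPM. Rbp4 had log2 differences of 0.98 ± 0.265 (adjusted p = 0.127) and 0.91 ± 0.264 (0.0988). For hpx they were 2.90 ± 0.972 (0.214) and 2.40 ± 0.952 (0.196), a large difference with a large error. Apof went the other way, at 187 and 204 CPM in WT females and 133 to 151 CPM in mutant females, without passing.

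In all, 23 of 31 members had all 4 mutant females above both WT females (22.1% of all genes with a mean of at least 1 CPM), and 3 had all 4 below (24.9%): pros1, the gene of protein S, apof and f2r. Egg yolk genes differed between the same samples. Vtg3 was at 52267 and 65624 CPM in WT females, 1599 and 7046 in ATM mutant females, and 3409 and 3.78 in double mutant females. The oestrogen receptor gene esr1 was at 1187 and 1128, 421 and 677, and 382 and 27.8 CPM. The part of the female reproductive state in the plasma protein levels was not tested, and the labels do not give it.

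The number of calls in females depended on single libraries. Without the library labelled double mutant 4, a male, 14 members were called higher in ATM mutant females and 13 in double mutant females. Hpx then had log2 differences of 2.90 ± 0.175 (adjusted p = 0.00115) and 2.42 ± 0.172 (0.000759). Without double mutant male 1 the counts were 13 (all higher) and 13 (12 higher and apof lower). No member was called in either comparison without any one of ATM mutant 1 or 2, double mutant 2 or 3, or WT 3 or 4. Without WT male 1 or 2 serpinf2 was the only call in the ATM mutant, and without ATM mutant 4 fgg and serpinf2 were called in the double mutant. Scaling by total counts moved the median of all genes by 0.51 and 0.78 on the log2 scale and gave 9 and 23 members, all higher.

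**Figure D4:**
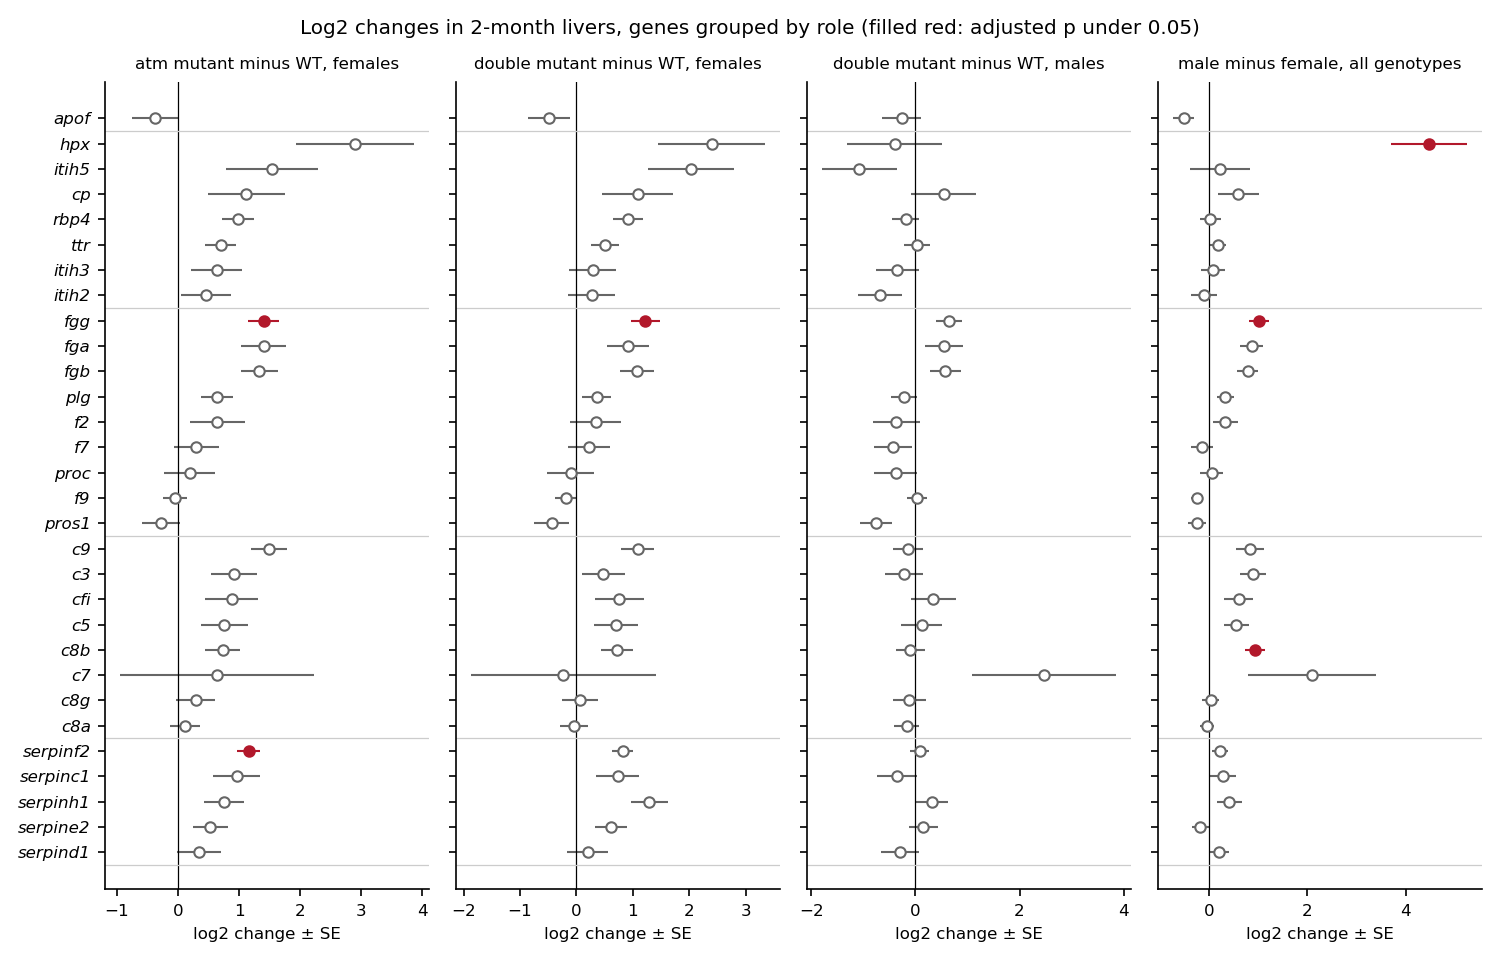
Log2 difference (horizontal, bars ± 1 SE) of 30 members, grouped by role, for ATM mutant females, double mutant females and double mutant males against WT of the same sex, and for males against females. Filled red points passed the adjusted threshold; most points lie right of 0 in the 2 female panels, while the error bars in males are wide for hpx.

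In male livers no member was called between double mutant and WT. Of 33 tested, 0 were called by edgeR and 0 by DESeq2, against 0.00560% of all genes, and 2 had an unadjusted p under 0.05 (11.6% of all genes). The 2 double mutant males differed from each other. Hpx was at 68664 and 5035 CPM against 53462 and 43883 in WT males. C3 was at 14771 and 31034 CPM against 30801 and 22323, and prothrombin (f2) at 3811 and 1318 CPM against 2728 and 3871. Each WT pair lay between the 2 double mutants for hpx, and the order of the 2 double mutants was opposite for hpx and c3. Fgg, at 10339 and 7361 CPM, was above both WT males (1.57-fold; adjusted p = 0.402). So were 16.5% of all genes with a mean of at least 1 CPM.

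The library labelled double mutant 4 was the most extreme male liver for many genes, members or not. Compared with the other 4 male livers, 5 of 8 complement genes were above all of them (c3, c5, c7, c9 and cfi) and 2 below, while 6 of 9 coagulation genes were below all of them and 0 above. Of these, c7 (6.89 CPM in this library) reached the mean of 1 CPM needed to be counted only through it. Over the members 9 of 32 were above (32.9% of all genes) and 16 below (32.2%). Cp was at 5652 CPM against 1193 to 3027, and antithrombin at 642 against 1267 to 1582. The sum of the 8 hepatocyte markers was 3920 CPM there and 5820 to 8850 in the other 2-month livers. The part of cell composition was not tested. Without double mutant male 1 this library alone stood for its group and was assumed to vary like the others, and 12 members were called, 1 higher (c5) and 11 lower, with hpx at -3.29 ± 0.243 (adjusted p = 0.00205). Without the library labelled 4, hpx was at 0.53 ± 0.196 (0.338).

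Whether the double mutant difference was larger in females than in males was tested as an interaction. No member passed by edgeR (0 of 33, against 0.319% of all genes), 4 had an unadjusted p under 0.05 (14.6% of all genes) and DESeq2 called 2 (serpinf2 and rbp4). The log2 interaction was 1.22 for c9, 0.74 for serpinf2, 1.10 for rbp4 and 3.12 for itih5. Itih5 was low throughout, at 1.03 to 7.36 CPM (19 to 255 counts) over the 2-month livers. Without double mutant male 1 there were 12 calls, and without the library labelled 4 there were 3 (c9, c5 and hpx, all larger in females).

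Over both sexes with sex as a covariate, no member was called between any 2 of the 3 liver genotypes. For ATM mutant against WT, 0 of 33 passed (0.00% of all genes), 5 had an unadjusted p under 0.05 (1621 of all 16174 genes) and DESeq2 called 3 (fgg, fga and serpinf2). The log2 difference of fgg was 0.96 (adjusted p = 0.421). For double mutant against WT, 0 of 33 passed (0.662%), 6 had an unadjusted p under 0.05 (19.5% of all genes) and DESeq2 called 2 (fgg and fgb), with fgg at 0.91 (0.0843). Without the library labelled double mutant 4 fgg was called (1.04 ± 0.213; 0.0356), and without WT male 1 serpinh1, the gene of a collagen chaperone, was. For double mutant against ATM mutant, 0 of 33 passed (0.0433%), 0 had an unadjusted p under 0.05 and DESeq2 called 0, with 24 of 33 log2 differences negative and a median of -0.25 (0.04 over all genes). The 3 comparisons share their samples in pairs.

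The LOC genes add the main apolipoproteins. Apoa1a (LOC107395221), the main protein of high-density lipoprotein, was at 23241 and 21219 CPM in WT females, 77748 and 74000 in ATM mutant females, and 60968 and 78684 in double mutant females. Males had 57630 to 70532 CPM, except 33058 in the library labelled double mutant 4. WT females were the lowest 2 livers. The log2 difference was 1.66 ± 0.373 in double mutant females (adjusted p = 0.0476) and 1.78 in ATM mutant females (0.0664). Without the library labelled double mutant 4 the first was 1.67 ± 0.146 (0.00148). Over 17 settings, among them leaving out each library, apoa1a was called in double mutant females in 8. The log2 difference there ran from 1.46 to 2.44, so the call depended on the setting while the direction did not.

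Apoeb (LOC107379395), related to apolipoprotein E, showed the reverse order in females. It was at 1487 and 1431 CPM in WT females, 765 and 664 in ATM mutant females, and 299 and 283 in double mutant females, while males of all genotypes had 197 to 506. It fell by 2.32 on the log2 scale in double mutant females (SE 0.317, edgeR adjusted p = 0.0124). In males both double mutants were above both WT livers, as were 16.5% of all genes with a mean of at least 1 CPM. Apoeb was not called in males. The interaction, females minus males, was -3.01 ± 0.436 (edgeR adjusted p = 0.0471). In ATM mutant females it was -1.02 (0.166). Without the library labelled double mutant 4 the difference in double mutant females was -2.31 (0.00185). The interaction was then -3.30, with a single double mutant male left. Over 18 settings, among them leaving out each library, apoeb was called in double mutant females in 14 (log2 -2.36 to -1.54). The interaction was called in 9 of the 18 (log2 -3.40 to -2.35).

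Apol1 (LOC107383494), from the apolipoprotein L family, was low throughout, at 1.02 and 1.18 CPM in WT females, 3.12 to 4.69 in mutant females and 4.83 to 13.3 in males. It was higher in ATM mutant females (2.00 ± 0.36; adjusted p = 0.0460), in double mutant females (1.83 ± 0.359; 0.0333) and in males against females (1.58 ± 0.293; 0.0236). Over 18 settings, among them leaving out each library, apol1 was called in 12 in ATM mutant females and in 12 in double mutant females. Between the sexes it was called in 14 of the 18. Between the sexes c7b (LOC107374428), a complement C7 gene, was also higher in males (1.65 ± 0.364; 0.0453) and rbp4l (LOC107372647) was lower (-1.43 ± 0.32; 0.0457). These calls held in 9 of 17 settings for c7b and 7 of 18 for rbp4l. The library labelled double mutant 4 held the highest levels of apol1 (13.3 CPM) and c7b (1498 CPM, against 345 to 715 in the other males). Without it the differences between the sexes were 1.43 ± 0.31 for apol1 (0.032), 1.23 ± 0.271 for c7b (0.035) and -1.55 ± 0.342 for rbp4l (0.0345), while without double mutant male 1 rbp4l was not called (0.0594). In all 3 of 27 LOC genes were called between the sexes (2.84% of all genes), 1 of 30 in ATM mutant females (1.71%), 3 of 30 in double mutant females (5.13%) and 0 of 30 in double mutant males (0.00560%). In double mutant males 3 had an unadjusted p under 0.05 (11.6% of all genes). Between the tissues 20 of 32 were higher (29.5%) and 6 lower (43.1%) in liver.

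Few genes that act on plasma proteins were called. Of all genes, 2.84% were called between the sexes, 1.71% in ATM mutant females, 5.13% in double mutant females and 0.662% in double mutants over both sexes. Single calls in lists this short therefore say little about a list. Of 12 lipoprotein handling genes tested, 2 were higher in male livers: lpl, the gene of lipoprotein lipase (1.65 ± 0.262; adjusted p = 0.0127), and ldlr, of the low-density lipoprotein receptor (1.23 ± 0.239; 0.0276). Mttp, which loads lipid onto apolipoprotein B, was at 112 and 117 CPM in WT females, 45.2 and 39.9 in ATM mutant females and 69.3 and 70.4 in double mutant females. It fell by 1.41 on the log2 scale in ATM mutant females (SE 0.165; 0.0154). Of the 21 liver transcription factor genes tested, prox1a (LOC107377203) was higher in ATM mutant females (1.39 ± 0.243; 0.0443) and foxa2 was lower in double mutants over both sexes.

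Foxa2, the gene of a pioneer factor at hepatocyte genes, was at 12.0 to 17.8 CPM in the 4 double mutant livers and at 42.6 to 105 CPM in the other 7. The groups did not overlap, and the share of all genes that separate in this way was not counted. The log2 difference from WT was -2.17 ± 0.309 (adjusted p = 0.0359), and -2.38 ± 0.478 in females alone (0.0361). Jak1, a kinase of the interleukin 6 pathway, was the only one of 11 acute phase signal genes called in double mutant females, at 44.7 and 44.3 CPM against 100 and 121 in WT females (-1.31 ± 0.272; 0.0391). ATM mutant females had 46.4 and 45.5 CPM. The vitamin K and clotting partners and the complement partners had no call in any genotype or sex comparison.

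In 2-month brains no member was called for genotype or sex. Of 24 tested, 0 passed for ATM mutant against WT (0.00987% of all genes), double mutant against WT (0.00493%), double mutant against ATM mutant (0.00%) and male against female (0.00503%). At an unadjusted p under 0.05 there were 3, 3, 2 and 6, against 8.79%, 5.40%, 5.31% and 8.90% of all genes, and DESeq2 called 0 in each. The genotype comparisons share their samples in pairs.

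Cp was at 62.6, 54.8, 32.8 and 33.6 CPM in WT brains 1 to 4, 63.3, 76.2, 80.4 and 66.0 in ATM mutant brains, and 65.1, 86.4, 49.5 and 96.0 in double mutant brains. All ATM mutant brains were above all WT brains, and the lower 2 WT values were the females. The log2 difference was 0.69 in ATM mutants (adjusted p = 0.540) and 0.73 in double mutants (0.891). Serpine2 was at 53.1 to 60.7 CPM in WT, 63.5 to 68.7 in ATM mutant and 64.3 to 116 in double mutant brains, both mutants above WT without passing.

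Apof was at 25.7 to 40.9 CPM in WT brains and 41.2 to 49.7 in double mutant brains, again without overlap (adjusted p = 0.891). Serpini1 stayed between 44.9 and 54.8 CPM in all 12 brains. Of 18 members with a mean of at least 1 CPM, 2 had every ATM mutant brain above every WT brain (1.81% of all genes), 1 (apobec2) had every one below (2.84%), and 2 had every double mutant brain above (1.25%).

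The brain labelled double mutant 4 was above all other 2-month brains in 8 of 18 members (15.1% of all genes) and below all in 0 (10.2%), and it was above all in 16 of 20 LOC genes. C3 was at 10.7 CPM there and at most 0.752 in the other 11 brains, so it reached the mean of 1 CPM needed to be counted only through this library. Rbp4 was at 332 CPM against 140 to 229. Among LOC genes cfb (LOC107386372), complement factor B, was at 30.5 CPM against 0.482 to 1.57, and apoeb at 482 against 111 to 176. Cfb and, narrowly, serping1 (LOC107375201) also reached the mean of 1 CPM only through this library. For c3 and cfb the filter thus fixed this brain as the highest. The summed macrophage and microglia markers were 91.7 CPM in this brain and 16.4 to 27.2 in the others, and their part in these levels was not tested.

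In the 3-month male livers no member was called between Blm1 mutant and WT. Of 26 tested, 0 passed edgeR's test (0.00% of all genes) and DESeq2 called 0. At an unadjusted p under 0.05 (8.05% of all genes) there were 2, c8b (log2 0.68; adjusted p = 0.601) and c5 (0.67; 0.604). All 6 complement log2 differences were positive and all 9 coagulation log2 differences negative, with a median of -0.00 over all tested genes. The genes were measured in the same livers, so their signs are not independent of each other. No member had its groups without overlap (3.20% of all genes in each direction).

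Hpx was at 59552, 96934, 106715 and 42804 CPM in WT L19, L33, L7 and L8 and at 94589, 29771 and 34795 in Blm1 mutant L29, L30 and L3. The groups overlapped, since L29 lay within the WT range. C3 was at 38428, 51100, 55482 and 38706 CPM in WT and 48665, 53841 and 113756 in Blm1 mutant livers. C5 was at 3453 to 3959 CPM in WT and 3494, 5185 and 8982 in Blm1 mutant livers. L3 held the highest value of both complement genes.

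L3 was above all other 3-month livers in 4 of 6 complement genes and in 6 of 26 members (21.8% of all genes), and below all others in 7 members (17.8%). Without L3 the log2 differences were 0.16 for c3, 0.24 for c5 and 0.23 for c8b (adjusted p = 0.998 each). Csf1ra was at 23.7 CPM in L3 and 0.83 to 1.77 in WT livers, and mb21d1 counts were 362 in L3, 92 in L30, 2 in L29 and 1 to 9 in WT livers. The summed macrophage markers were 468 CPM in L3 and 117 to 232 in WT livers, and their part was not tested. Fga, fgg, rbp4 and serpinf2 overlapped between the groups.

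In the 3-month brains no member was called between cGAS mutant and WT. Of 25 tested, 0 passed edgeR's test (0.463% of all genes), 0 had an unadjusted p under 0.05 (8.39% of all genes) and DESeq2 called 0. The log2 differences were positive for 22 members with a median of 1.04 (0.02 over all genes). There were 2 WT brains, and the same test recovered 30% of simulated log2 changes of 2 and 1% of log2 changes of 1. Those changes were placed in well-counted genes drawn from all genes, so the rates do not describe members whose spread comes from brain 3_f.

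Brain 3_f held the high values. C3 was at 15.5 and 103 CPM in WT 3_m and 4_f, at 7.26, 5.38, 6.06 and 23.8 in cGAS mutants 1_f, 2_f, 2_m and 3_m, and at 1928 in 3_f. Fga was at 4.55 and 0.747 CPM in WT, 0.506 to 3.53 in the same 4 mutants, and 621 in 3_f. Without 3_f the log2 difference of c3 was -2.51 ± 1.13 (adjusted p = 0.742) and that of fga was -0.20 ± 0.696 (0.999), where with it both were positive. Without WT 4_f they were -0.05 ± 3.15 (0.998) and -0.76 ± 3.43 (0.985). That library held 282 mb21d1 counts against 8 to 19 in the other 3-month brains.

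Brain 3_f was above all other 3-month brains in 21 of 29 members (8.21% of all genes), among them all 9 coagulation genes. These 29 have a mean of at least 1 CPM, which some reach only through 3_f. F7, f9, c8a and c8g held at most 0.485, 0.51, 0.395 and 0.527 CPM in the other 6 brains on the scale shared with liver. C9 and serpinf2 had medians of 0.557 and 0.743 CPM there, and also reach the mean of 1 CPM only through 3_f. For such members the filter fixed 3_f as the highest brain. Its levels of 22 liver members ran from 2.01% to 12.7% of the 2-month female liver level, with a median of 7.63%. Against 2-month male livers they ran from 0.167% to 16.2% (median 6.5%). Against 3-month male livers they ran from 0.201% to 18.4% (median 5.67%), with hpx lowest each time. The 6 hepatocyte markers ran from 4.9% to 9.63% of the 2-month female and 3.96% to 17.5% of the 3-month male liver level. Against the highest other brain, the 6 hepatocyte markers ran from 0.876-fold (arg1) to 70.3-fold (tdo2) in 3_f, with a median of 4.06. Arg1 was thus not highest in 3_f. Tdo2, a liver enzyme and the most extreme of the 6, was at 101 CPM there and at most 1.3 CPM in the other brains. Of the members found in both tissues, rbp4 was also highest in 3_f, at 494 CPM against 228 to 421. Serpine2 was at 52.2 CPM against 45.2 to 76.2 and apof at 28.8 against 7.34 to 29.8, both within the range of the other brains. The labels' extraction text for these samples speaks of liver while the tissue field says brain, and summed neuron markers were 998 to 1930 CPM over the 7 libraries. The part of liver RNA in 3_f was not tested beyond these levels.

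**Figure D5:**
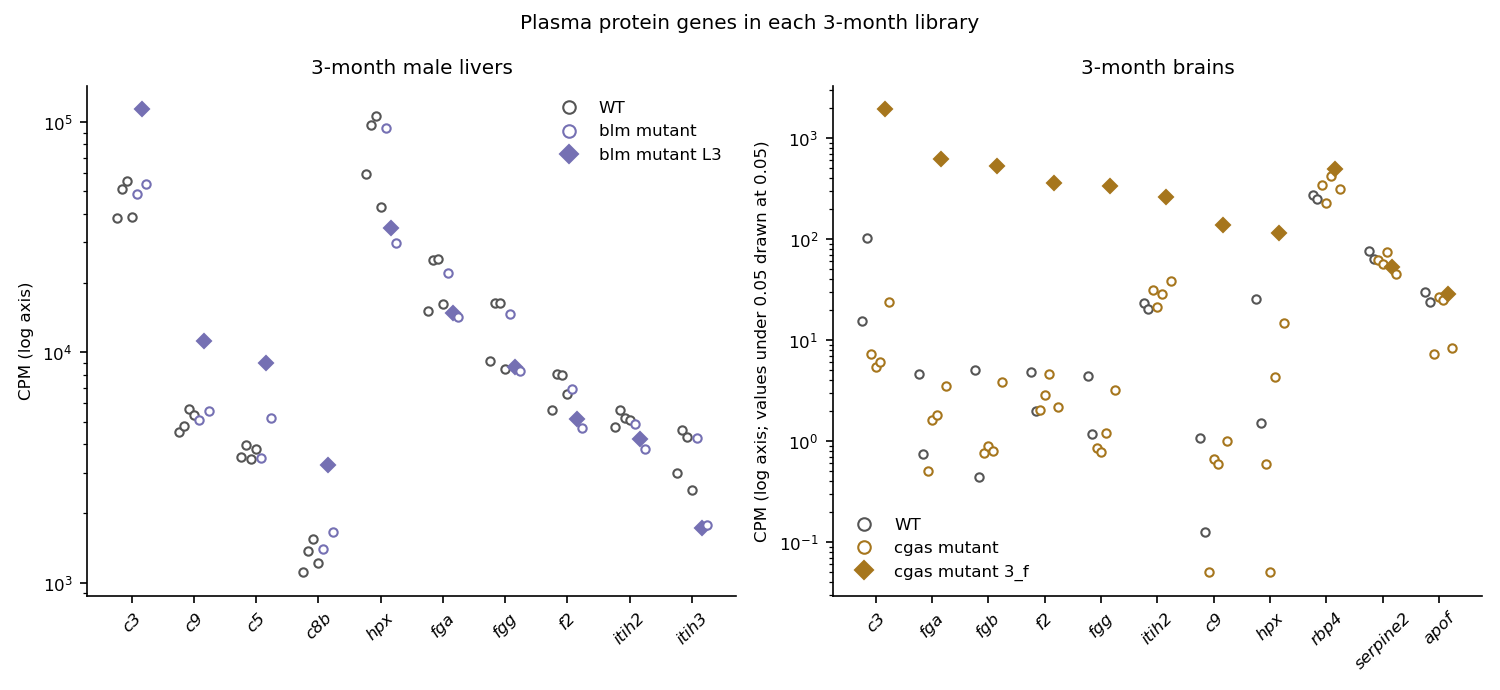
CPM (log axes) of selected members in each 3-month library, with WT and Blm1 mutant male livers on the left (diamonds mark L3) and WT and cGAS mutant brains on the right (diamonds mark 3_f, values under 0.05 drawn at 0.05). L3 stands above the other livers for c3, c5 and c8b, and 3_f stands above the other brains for c3 and the clotting genes but not for serpine2.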

How the data were processed

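RNA of liver and brain was sequenced as polyA-selected libraries (KAPA mRNA HyperPrep, NextSeq 2000, single-end), per the labels' protocols. The authors deposited raw read counts per gene. The submitters' processing notes name FastQC 0.11.8, Trim Galore 0.6.4, cutadapt 3.4, STAR 2.7.6a and edgeR 3.32.1, without roles. Genome build, annotation, counter and strand handling are not given in the sources used here, so reads shared by near-identical copies or by overlapping genes may be split unknowably. The 3-month tables hold 16383 genes, all of them also in the 2-month table, and 8 names that had turned into dates were restored by position. No values of ATM mutant liver 3 were used, and 1 cGAS mutant male brain with 0 counts was left out, so 37 of 39 samples were used.

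Members were found by a name pattern, and none was an open reading frame label; 42 LOC genes matched by RefSeq symbol (assembly NfurGRZ-RIMD1, names only), of which 10 open reading frame labels were dropped. Symbols of 27 members are in that table. The members, gene lists and tests were chosen with earlier results of these data known. Named genes were the most abundant of each role in liver and in brain, the called members, and their values in the other comparisons; members picked after their values were seen include itih5, serpinh1, f2r, pros1, ttr and the genes of single libraries.

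Counts were tested with edgeR 4.0.16 in R 4.3.3 (TMM scaling, filterByExpr, quasi-likelihood tests with robust fits, Benjamini-Hochberg adjustment over all genes tested), with genotype and sex in the model, and within sex from groups by genotype and sex. WT liver and brain were fitted together. SE is the absolute log2 difference divided by the square root of F. DESeq2 1.42.0, other scalings, no filter, blocks and leaving out each library were alternatives. They were run for members and named LOC genes, not for the lists of genes that act on plasma proteins. Counts of groups that did not overlap used genes with a mean of at least 1 CPM. In simulated data changes were placed in well-counted genes only. In the liver genotype comparison 23% of those changed by 1 on the log2 scale were recovered and 85% of those changed by 2. Intervals and floors cover counting error only. Same-numbered samples of different genotypes had mean correlations from -0.418 (WT and ATM mutant livers) to 0.134 (ATM and double mutant livers). Other pairs had means from -0.033 to 0.149. WT and ATM mutant fish of the same number were of opposite sex, which limits this check. Numbers were not treated as pairs. Brain and liver of a fish correlated by 0.0807 on average (lowest 0.00577), against -0.00712 for other pairs. The main tissue fit did not use the fish as a block.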

Additional observations from a re-analysis of the deposited data

Results flagged for a closer look

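Of 85 groups tested, each of 1 gene in 4 or 5 libraries, 18 had 1 library far from the others. Chance flags about 1 in 20 groups, but groups of different genes share libraries, so the flags are not independent. In double mutant livers hpx stood out at 68664 CPM in replicate 1, and itih2 (734 CPM), c9 (3774), cfi (1849) and apof (55.7) in the library labelled replicate 4. These groups pool the sexes, and hpx was also far higher in males than in females of the other genotypes. The male unlike the other males for hpx was the library labelled replicate 4 (5035 CPM), not replicate 1. In double mutant brains c3 (10.7 CPM) and serpine2 (116 CPM) stood out in replicate 4. In ATM mutant brains serpini1 stood out at 54.8 CPM in replicate 3, next to 49.9 in the nearest other brain.

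Brain 3_f of the cGAS mutant stood out in 10 genes. These were hpx (114 CPM), itih2 (259), fga (621), fgb (524), fgg (334), f2 (357), c3 (1928), c9 (138), c5 (117) and serpinf2 (77.6).

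The difference of apoeb between double mutant and WT livers was not the same in the sexes, with an interaction of -3.01 on the log2 scale. In brains itih2 was lower in double mutant females than in WT females, at a mean of 15.1 CPM in the double mutant females, and higher in double mutant males than in WT males. That difference between the sexes was not tested, and itih2 lay between 13.9 and 18.0 CPM in all 12 brains.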

How the results depend on the processing

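With DESeq2 the called members were 3 for ATM mutant against WT livers, 2 for double mutant against WT, 7 for males against females, 7 in ATM mutant females, 7 in double mutant females and 2 for the interaction. Total-count scaling gave 1 (fgg) for double mutant against WT, 9 in ATM mutant females, 23 in double mutant females and 5 for the interaction; it moved the median of all genes by 0.47, 0.51, 0.78 and 0.59. Without the filter on low counts 1 was called in ATM mutant females and 0 in double mutant females. Leaving out 1 library gave 0 to 0 members for the 4 brain comparisons, the Blm1 and cGAS mutants, ATM mutant against WT livers and double against ATM mutant livers, 0 to 1 for double mutant against WT, 0 to 4 for sex, 0 to 14 in ATM mutant females, 0 to 13 in double mutant females, 0 to 12 in double mutant males, 0 to 12 for the interaction and 31 to 35 between the tissues. Uncalled values changed sign for hpx in double mutant livers without the sex covariate (-0.30) and for c3 in double mutant males with total counts (0.03). Leaving out 1 library also changed the sign of c3 in double mutant livers (-0.09 to 0.32; negative without double mutant 2 or 4 or WT 3), of c3 in double mutant males (-0.81 to 0.21; positive without double mutant 1 or WT 1) and of hpx in double mutant males (-3.29 to 0.53; positive without the library labelled 4). It did so in cGAS mutant brains for fga (-0.76 to 8.10) and c3 (-2.51 to 2.65), negative without 3_f or WT 4_f. The median share in brains was 0.0658% over the genes that all 3 tables hold. Because the numbers were not treated as pairs, the replicate block is given only here. It left 0 members called in all 6 genotype comparisons, and the block by fish left 32 between the tissues. Of the settings for single genes, 993 kept direction and side of the threshold, 109 lost a call, 51 gained one and 12 changed sign; the causes were not tested.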
